A study of Mus musculus with 16 samples.

Results

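Gene expression was compared between Miz1 deltaPOZ and Miz1 wt in T cell acute lymphoblastic leukaemias (T-ALL) that kept wild-type p53. The 6 libraries, of 16 in the series, were chosen by the titles of the mice: those ending in ICN with no suffix are Miz1 wt (2 mice), and those ending in ICN-Lck or ICN-Vav with no mention of p53 are Miz1 deltaPOZ (4 mice, 2 with each suffix). All 6 mice are C57Bl6, all had leukaemia induced by ICN, an activated form of Notch, and all are labelled p53 wt. The deltaPOZ mice make a Miz1 protein that lacks its POZ domain. Lck and Vav are names of promoters often used to drive Cre recombinase in developing T cells and in all blood cells, but the labels do not explain the suffixes. The age and sex of the mice, the organ sampled and the share of leukaemic cells are not stated in the labels. Each library is 1 mouse, so a p-value rests on the spread between mice. That spread was estimated within the groups of all 16 libraries, including leukaemias without p53, and not from these 6 mice alone.

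Miz1, encoded by Zbtb17, is a zinc finger transcription factor of the BTB/POZ family. Its POZ domain lets the protein assemble into multimers and is needed for stable binding to chromatin, and Miz1 recruits Myc to repress some genes while it activates others involved in vesicle transport and autophagy. In the thymus, Miz1 supports early lymphoid precursors that depend on interleukin 7, and Notch signalling drives T cell commitment and, when it is constitutively active, T-ALL.

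The 6 libraries held 45963842 to 58271208 gene counts and detected 19965 to 25387 genes. The second Vav library stood apart by its 25387 detected genes and by 56.2% of its alignments being not unique, against 47.7% to 49.1% in the other 5. The first Miz1-wt library stood apart in its sex-linked genes: Xist lay at 1300 CPM (counts scaled to the size of the library) there and at 10.6 to 50.7 CPM in the other 5 libraries, and Ddx3y, a Y-linked gene, at 23.5 CPM against 148 to 208 CPM. It also had the highest sum of neutrophil markers, 937 CPM against 56.3 to 464 CPM. The counts of called genes and the fold changes of named genes were therefore also computed without each library in turn. Pairs of libraries of the same kind differed by a median of 0.214 to 0.29 on the log2 scale over 12451 genes, and pairs of 1 Miz1-wt and 1 deltaPOZ library by 0.19 to 0.317, so the range for pairs across genotypes lay around the range within them. The leading T cell receptor beta variable segment and its share varied between libraries, though some libraries had the same one. Trbv13-2 made 91.4% and 55.3% of such counts in the Lck pair. Trbv16 made 96.8% in Vav 1 and 33% in Miz1-wt 1, where Trbv20 followed with 28.8%. Trbv20 made 94.9% in Vav 2, and Trbv13-3 made 83% in Miz1-wt 2.

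The genes named by the labels were examined first, in the order Miz1-wt 1, Miz1-wt 2, Lck 1, Lck 2, Vav 1 and Vav 2, which is kept throughout. Zbtb17 (GRCm38 chromosome 4, 141444654 to 141467930, where Spen overlaps it on the other strand) lay at 51.8, 42.9, 38.2, 43.2, 41.8 and 38 CPM. The deltaPOZ values reached the lower Miz1-wt value, and the difference of -0.23 (log2, SE 0.25) was within the spread. The counts cover the whole gene, so a deletion of the exons for the POZ domain need not show in them and the Miz1 labels are not checked by this. Trp53, the p53 gene, lay at 70.2 to 113 CPM in the 6 libraries and at 14 to 30.6 CPM in the 6 ICN libraries labelled p53 ko. Notch1, the receptor from which ICN derives, lay at 802 and 961 CPM for Miz1 wt and at 362, 612, 298 and 917 CPM for deltaPOZ (log2 -0.70, SE 0.54). All 6 leukaemias carried T lineage transcripts: the 12 T lineage markers summed to 2871 to 3970 CPM, 12 of 12 were tested, and 0 of them was at 0 in all libraries. Lck itself, the T cell kinase whose promoter gives the Lck suffix its usual meaning, lay at 711 to 1023 CPM, and Vav1, a guanine exchange factor of blood cells, at 170 to 199 CPM.

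The first comparison asks how loss of the POZ domain altered expression when both suffixes are pooled, with the Lck and the Vav pair weighted equally (4 against 2 mice). Over 17470 genes, edgeR's quasi-likelihood test with Benjamini-Hochberg adjustment called 0 genes at an adjusted p under 0.05 (0% of those tested). An unadjusted p under 0.05 was reached by 327 genes (1.87%), of which 103 were higher (0.59%) and 224 lower (1.28%) with deltaPOZ. With the 6 libraries fitted alone, 653 of 15944 genes reached it and 0 passed adjustment. In 1992 of the 17470 genes (11.4%) the 4 deltaPOZ values did not overlap the 2 Miz1-wt values, in 952 above them (5.45%) and in 1040 below (5.95%). DESeq2 called 15 genes, all lower, among them Ldhb, Snx18, Lrp12, Rsrc1, Gne and Hfm1, but also Xist and T cell receptor segments. limma-voom called 0. The balance of higher and lower genes depended on the first Miz1-wt library: 31.5% of the 327 genes were higher with all libraries, and 57.3% of 302 genes were higher without it. It was 42.3% without Vav 1, 41.7% with limma-voom, 43.8% with DESeq2, 47.3% with no filter on low counts and 45.8% with the 6 libraries fitted alone. The number of genes at that p was 524 without Miz1-wt 2 and 216 without Lck 1.

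The genes named come from the 12 protein-coding genes in each direction with the lowest p among those whose groups did not overlap, so neither the small p nor the gap is evidence about them as a set. The gap between the groups differed among them. Of 11228 protein-coding genes considered, the lowest Miz1-wt value was at least 2-fold above the highest deltaPOZ value in 7 (0.0623%). Among them were Gzmb, Lrp12, Rsrc1, Saa3, Snx18 and Tmbim4. In the other direction, 3 genes (0.0267%) had such a gap: Nr2f2, Plekha8 and Pxdc1. The plot of named genes by library shows the values of both sets.

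**Figure D1:**
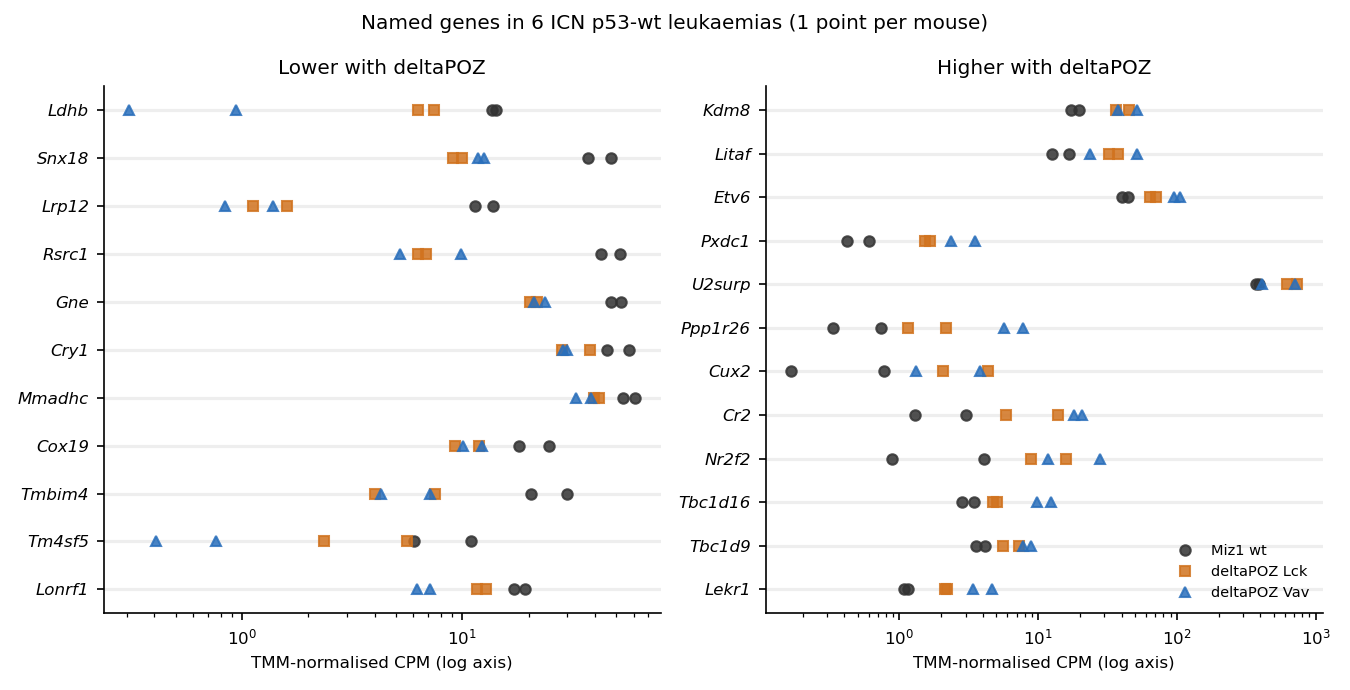
Levels of named genes in the 6 libraries, 1 point per mouse, as CPM on a logarithmic axis (left, genes of the lower set; right, genes of the higher set; circles Miz1 wt, squares deltaPOZ Lck, triangles deltaPOZ Vav). In Snx18, Lrp12, Rsrc1 and Gne the Lck and Vav values lie together below Miz1 wt, while in Ldhb, Tm4sf5 and Lonrf1 the Vav values lie below the Lck values.

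Snx18, a sorting nexin that bends endocytic membranes and takes part in forming autophagosomes, was lower in all 4 deltaPOZ libraries. Snx18 (chromosome 13, 113592179 to 113618564, minus strand) lay at 47.4, 37.4, 10, 9.07, 11.8 and 12.6 CPM. All 4 deltaPOZ libraries lay within 9.07 to 12.6 CPM, and the lower Miz1-wt library was 2.97-fold above the highest of them. The fitted level was 3.93-fold lower (log2 -1.97, SE 0.27, edgeR adjusted p = 0.132), which did not pass, and the log2 difference ran from -2.15 to -1.81 when each library was left out in turn. Ambra1, a scaffold of autophagy initiation that has been reported as bound by Miz1, lay at 79.6, 74.4, 50.9, 60.8, 48.1 and 41.9 CPM. The groups did not overlap, but the difference of -0.62 (log2, SE 0.19) was smaller and did not pass.

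The promoters of Snx18, Ambra1 and Ldhb are shown because Snx18 was low in both pairs, Ambra1 is a reported Miz1 target and Ldhb had the lowest p. Each sequence holds the 250 bases before the transcription start in RefSeq on GRCm38.p6, 5′ to 3′ on the gene's own strand, with CG dinucleotides in capitals. Snx18 is chr13:113618565-113618814 on the minus strand, Ambra1 is chr2:91729888-91730137 on the plus strand and Ldhb is chr6:142507958-142508207 on the minus strand.
Snx18: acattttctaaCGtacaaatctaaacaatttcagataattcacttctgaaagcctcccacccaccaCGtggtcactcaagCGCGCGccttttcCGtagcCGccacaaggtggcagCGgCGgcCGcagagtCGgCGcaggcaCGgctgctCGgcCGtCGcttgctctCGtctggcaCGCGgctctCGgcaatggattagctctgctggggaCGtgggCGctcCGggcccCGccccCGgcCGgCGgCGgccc
Ambra1: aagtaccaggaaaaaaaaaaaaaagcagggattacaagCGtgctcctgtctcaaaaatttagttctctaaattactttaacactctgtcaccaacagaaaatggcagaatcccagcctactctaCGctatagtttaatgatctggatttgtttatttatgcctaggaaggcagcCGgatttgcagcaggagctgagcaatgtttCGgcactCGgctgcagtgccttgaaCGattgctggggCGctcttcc
Ldhb: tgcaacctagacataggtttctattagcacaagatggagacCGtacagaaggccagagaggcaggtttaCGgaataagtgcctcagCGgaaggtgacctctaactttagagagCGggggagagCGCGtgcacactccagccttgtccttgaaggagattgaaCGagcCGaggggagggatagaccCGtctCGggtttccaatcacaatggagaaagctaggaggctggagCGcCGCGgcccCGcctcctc
The Snx18 promoter held 28 CG dinucleotides and 64.4% G and C, and 92.4% of all 32851 promoters in the table held fewer. The Ldhb promoter held 14 (70.6% held fewer) and the Ambra1 promoter 7 (53.7% held fewer). The letters ATCGAT and CGGTAAT, the core of sequences described for Miz1, were searched on both strands of 300-base promoters. ATCGAT was in 0 of the 7 lower genes with an entry, in Cux2 and Kdm8 of the 11 higher genes with one, and in 0.925% of all promoters. CGGTAAT was in none of these genes and in 0.438% of all promoters. Ambra1, Vamp4, Exoc2, Rpl22, Znhit3 and Hfm1 were searched as well. Of these 6 genes 5 had an entry, and 0 of the 5 held ATCGAT or CGGTAAT. A match describes letters, not binding, and no match says only that these letters are not in this window.

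Rsrc1, a serine- and arginine-rich factor of RNA splicing, showed a still wider gap. Rsrc1 (chromosome 3, 66981390 to 67358396, and overlapped by Shox2 on the other strand) lay at 52.2, 42.6, 6.33, 6.84, 9.86 and 5.24 CPM. The lower Miz1-wt library was 4.32-fold above the highest deltaPOZ library, and the fitted level was 6.72-fold lower (log2 -2.75, SE 0.49, edgeR adjusted p = 0.488). Lrp12, a membrane receptor of the low-density lipoprotein receptor family (chromosome 15, 39870589 to 39943994), lay at 11.4, 13.8, 1.12, 1.6, 0.841 and 1.38 CPM. Its deltaPOZ values were close to 1 CPM in both suffix groups (log2 -3.35, SE 0.59, edgeR adjusted p = 0.488).

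Gne, the enzyme that starts sialic acid synthesis (chromosome 4, 44034075 to 44084177), lay at 47.4, 52.5, 20.3, 21.9, 23.8 and 21.1 CPM. Both groups were tight, at 50 ± 3.57 CPM (SD, n = 2) with Miz1 wt and 21.8 ± 1.49 CPM (SD, n = 4) with deltaPOZ. The difference of -1.20 (log2, SE 0.22, edgeR adjusted p = 0.551) did not pass. None of the other 8 tested genes of sialic acid synthesis and transfer had an unadjusted p under 0.05, and Cmas, which activates sialic acid in the next steps, lay at 94.7 and 221 CPM for Miz1 wt against 115 to 187 CPM.

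Tmbim4, an inhibitor of cell death in Golgi membranes that overlaps Irak3, lay at 29.8 and 20.5 CPM for Miz1 wt and at 7.53, 4.02, 4.28 and 7.13 CPM for deltaPOZ (log2 -2.13, SE 0.56). Cry1, a repressor of the circadian clock, Mmadhc, which handles vitamin B12 in the cell, and Cox19, which helps assemble cytochrome c oxidase, were lower by 0.59 to 0.98 on the log2 scale.

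In the higher set no gene had an adjusted p below 1. Kdm8, a hydroxylase of the JmjC family, had the lowest p of the set (chromosome 7, 125444676 to 125462269). It lay at 19.8, 17.3, 36.3, 45.3, 51.2 and 37.9 CPM. The 4 deltaPOZ values ranged from 36.3 to 51.2 CPM, which is 2.3-fold higher by the fit (log2 1.20, SE 0.32), and did not pass (edgeR adjusted p = 1). Etv6, a transcriptional repressor of the ETS family that is mutated in leukaemia and overlaps Gm17089, lay at 44.5, 40.4, 70.3, 64.4, 106 and 95.1 CPM. The Lck pair lay between Miz1 wt and the Vav pair (log2 0.95, SE 0.29). Etv6 was 1 of 26 tested T-ALL oncogenes and the only one with an unadjusted p under 0.05 (1.87% of all genes). It ran against that list, of which 17 of 26 were below 0 in log2 difference, with a median of -0.15.

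Litaf, a membrane protein of late endosomes that overlaps Snn, lay at 16.7, 12.5, 32.6, 37.9, 51.4 and 23.5 CPM (log2 1.31, SE 0.35). U2surp, a protein associated with the U2 snRNP of the spliceosome, lay at 369 and 388 CPM for Miz1 wt and at 738, 627, 712 and 410 CPM for deltaPOZ. Vav 2 was thus close to Miz1 wt (log2 0.71, SE 0.22). Pxdc1, Ppp1r26, Cux2 and Nr2f2 were higher by 2.08 to 2.66 on the log2 scale from Miz1-wt levels of 0.165 to 4.08 CPM. For Cux2, a homeodomain factor, the log2 difference was 2.60 with all libraries, 4.07 without Miz1-wt 1 and 1.86 without Miz1-wt 2. For Nr2f2, a nuclear receptor that overlaps B130024G19Rik, these values were 2.66, 4.13 and 1.93. Ppp1r26 had 2.65 with all libraries, 2.17 without Miz1-wt 1 and 3.32 without Miz1-wt 2. Tbc1d16 and Tbc1d9, which carry a domain that acts on Rab GTPases, were higher by 1.23 and 0.92.

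The genes reported as Miz1 targets lay mostly lower with deltaPOZ. Of 12 tested, 0 passed over all genes, 4 were lower and 0 higher at an unadjusted p under 0.05 (1.28% and 0.59% of all genes), and 5 lay wholly below Miz1 wt (5.95% of all genes). Their median log2 difference was -0.54, against 0.00158 over all genes tested, and 11 of 12 were below 0. Their summed level was 1188 and 1348 CPM for Miz1 wt and 991, 1031, 837 and 970 CPM with deltaPOZ (exact permutation p = 0.0667, two-sided, the smallest that 15 arrangements of 4 against 2 mice can give). The list was taken from earlier reports on Miz1 and was chosen with results of these data known. Neither the direction of its members nor this permutation p is therefore independent evidence. Abundant members such as Rpl22 also weigh more in the sum.

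Vamp4, a SNARE of the trans-Golgi network, lay at 28.8, 29.4, 19.1, 14.8, 15 and 13 CPM (log2 -0.92, SE 0.30). Exoc2, a subunit of the exocyst that tethers vesicles to the plasma membrane, lay at 187, 173, 117, 141, 103 and 103 CPM (log2 -0.64, SE 0.28). For Exoc2 the Lck values lay between Miz1 wt and the Vav pair. Rpl22, a protein of the large ribosomal subunit, lay at 452, 535, 373, 324, 356 and 329 CPM (log2 -0.52, SE 0.22). Cdkn2b, a cyclin-dependent kinase inhibitor, was the other member lying wholly below Miz1 wt, at 0.0903 to 0.158 CPM against 0.446 and 0.275 CPM. Among the members that did not separate were Cdkn1a, Bcl2, Itga6 and Itgb1, with log2 differences of -0.20, 0.51, -0.00387 and -0.0849.

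Wider sets of the same pathways were drawn up without the reported targets, so Ambra1, Vamp4 and Exoc2, each lower at an unadjusted p under 0.05, are not counted in them. Of 31 other genes of the core autophagy machinery, 0 had an unadjusted p under 0.05 and the median log2 difference was -0.0824, with 3 lying wholly below (5.95% of all genes) and 1 wholly above Miz1 wt (5.45% of all genes). The member above was Atg10, a conjugating enzyme, at 3.92 and 5.02 CPM for Miz1 wt and 7.02 to 9.32 CPM with deltaPOZ. Of 61 other tested sorting nexins, SNAREs and exocyst subunits, Snx18 alone was lower at an unadjusted p under 0.05 (1.28% of all genes) and none was higher. The median of that list was -0.0573, and 5 members lay wholly below (5.95% of all genes) and 2 wholly above Miz1 wt (5.45%). Besides Snx18, those below included Stx6, a SNARE of the trans-Golgi network, at 71.5, 74.7, 51.4, 59.3, 37.3 and 48.6 CPM (log2 -0.58), which did not pass. Others overlapped, such as Vamp1 at 58.4 and 35.2 CPM against 23.9 to 37.4 CPM.

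Among 81 cytosolic ribosomal protein genes, 1 was lower (Rpl22) and 1 higher at an unadjusted p under 0.05 (1.28% and 0.59% of all genes). The higher one was Rpl22l1, the paralog of Rpl22, which overlaps Gm33051. Rpl22l1 lay at 85.5, 102, 175, 180, 190 and 244 CPM, so every deltaPOZ library was above both Miz1-wt libraries (log2 1.06, SE 0.48). The list's median log2 difference was 0.0822, 70 of 81 members were above 0, and the summed level was 59792 and 66921 CPM for Miz1 wt and 63343 to 70235 CPM with deltaPOZ, so the sums overlapped. In the pooled comparison 10 of 81 lay wholly above Miz1 wt (5.45% of all genes) and 1 wholly below (5.95%). In the Vav pair 40 of 81 lay wholly above (16% of all genes), with a median log2 difference of 0.12, and in the Lck pair 10 of 81 (13.4%), with a median of 0.0327. Of 31 genes of snoRNP and ribosome assembly, Znhit3 alone had an unadjusted p under 0.05 (1.87% of all genes). It ran against the list, of which 23 of 31 were above 0 in log2 difference, with a median of 0.13. In the Vav pair 29 of 31 were above 0 (median 0.23), in the Lck pair 16 (median 0.00834), and in p53 ko 30 (median 0.30). Znhit3, a zinc finger protein of box C/D snoRNP assembly that overlaps Myo19, lay at 21.2, 25.1, 12.2, 11.8, 14.6 and 6.65 CPM (log2 -1.03, SE 0.33). Hfm1, a meiotic DNA helicase, lay at 1.28, 1.32, 0.217, 0.406, 0.153 and 0.136 CPM (log2 -2.60, SE 0.58), with all deltaPOZ values below 0.5 CPM.

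**Figure D2:**
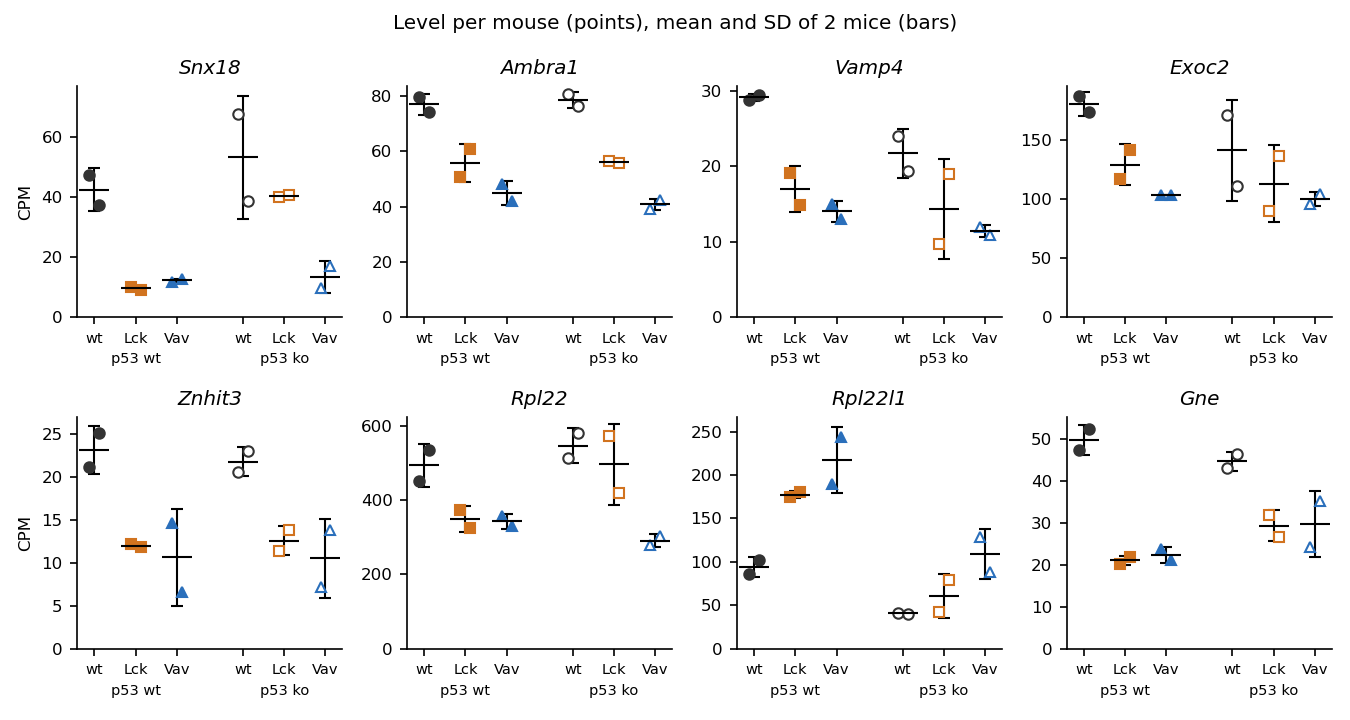
Levels of 8 genes in CPM in ICN leukaemias with p53 wt (filled points) and p53 ko (open points), by Miz1 wt, deltaPOZ Lck and deltaPOZ Vav, with 1 point per mouse and bars for the mean and SD of 2 mice. In p53 wt every deltaPOZ point of these genes lies on one side of both Miz1-wt points, whereas Snx18 in the p53-ko Lck pair lies at the level of the lower Miz1-wt mouse.

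The Lck pair was then compared with Miz1 wt on its own (2 against 2 mice). edgeR called 0 genes (0%), 189 had an unadjusted p under 0.05 (1.08%; lower in 107, 0.612%), and DESeq2 called 8. In 4642 genes (26.6%) the pairs did not overlap. Beside genes that were low in both pairs, the Lck pair had little Prdm16, a zinc finger regulator with histone methyltransferase activity that overlaps B230104I21Rik. Prdm16 lay at 6.17 and 14.1 CPM for Miz1 wt, at 0.355 and 0.158 CPM in the Lck pair and at 21.9 and 31.9 CPM in the Vav pair. The Lck pair was far below Miz1 wt and the Vav pair above it, with log2 differences of -5.28 (SE 0.89, edgeR adjusted p = 0.754) and 1.41 (SE 0.74). Because of these opposite values its pooled difference of -1.94 describes neither pair. Inka2, which inhibits p21-activated kinases, lay at 1.38 and 1.42 CPM in the Lck pair against 4.87 and 3.35 CPM (log2 -1.55, SE 0.45), and at 3.09 and 4.37 CPM in the Vav pair. Hddc3, a phosphohydrolase that overlaps Man2a2, lay at 6.45 and 4.6 CPM against 1.71 and 1.96 CPM (log2 1.59, SE 0.53), and at 1.53 and 1.93 CPM in the Vav pair. Adk, adenosine kinase, lay at 159 and 106 CPM against 61.3 and 74.4 CPM (log2 0.96, SE 0.33), while the Vav pair was split between 144 and 64.4 CPM.

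The Vav pair against Miz1 wt gave 1 called gene. Ldhb, the lactate dehydrogenase subunit of oxidative tissues (chromosome 6, 142490249 to 142507957), lay at 14.2 and 13.7 CPM for Miz1 wt, at 6.33 and 7.45 CPM in the Lck pair and at 0.936 and 0.307 CPM in the Vav pair. It fell 22.5-fold in the Vav pair (log2 -4.49, SE 0.47, edgeR adjusted p = 0.0152), and was 2.02-fold lower in the Lck pair (log2 -1.02, SE 0.40, edgeR adjusted p = 1). The Vav difference was -5.50 without Vav 1 and -3.89 without Vav 2 on the log2 scale. The 1 call is 0.00572% of genes tested, against 469 at an unadjusted p under 0.05 (2.68%) and 5593 whose pairs did not overlap (32%). The call was lost with the 12 ICN libraries alone (adjusted p = 0.223), with these 6 alone (0.463) and without Miz1-wt 2 (0.0809), with edgeR in each case, and DESeq2 called 35 genes. The other subunit gene, Ldha, lay at 682 and 645 CPM against 652 to 964 CPM over the deltaPOZ libraries, and of 21 glycolysis genes Ldhb alone was lower at an unadjusted p under 0.05 in the pooled comparison (1.28% of all genes).

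Several other genes were low in both Vav libraries and not in the Lck pair. Mtmr7, a myotubularin-related lipid phosphatase that overlaps Vps37a, lay at 6.54 and 9.91 CPM for Miz1 wt, 7.77 and 7.34 CPM in the Lck pair and 0.0764 and 0.171 CPM in the Vav pair (log2 -6.02, SE 0.99, edgeR adjusted p = 0.59). P3h4, a partner of collagen-modifying enzymes, lay at 6.77 and 9.07 CPM, 7.51 and 5.78 CPM, and 0.974 and 1.5 CPM in the same order of groups (log2 -2.67, SE 0.58). Cda, cytidine deaminase, lay at 1.11 and 0.275 CPM for Miz1 wt and at 0.0191 and 0.0512 CPM in the Vav pair. Its log2 difference in the Vav pair of -4.18 (SE 0.92) was -2.88 without Miz1-wt 1, -4.87 without Miz1-wt 2 and -5.00 without Vav 2. Of genes high in the Vav pair, Sh3bgrl2 lay at 4.51 and 6.04 CPM against 1.16 and 1.43 CPM (log2 2.02, SE 0.45), and Tbc1d16 at 9.86 and 12.3 CPM against 2.81 and 3.43 CPM (log2 1.83, SE 0.47). Neither passed.

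The direct test of the Lck pair against the Vav pair called 0 genes with edgeR (0%), with 289 at an unadjusted p under 0.05 (1.65%; lower in the Lck pair in 127, 0.727%) and 17 called by DESeq2. Ldhb had the lowest adjusted p among the named genes there (log2 3.47, SE 0.45, edgeR adjusted p = 0.135), followed by Prdm16 (-6.69, SE 0.94, edgeR adjusted p = 0.152) and Mtmr7 (5.90, SE 0.98, edgeR adjusted p = 0.452). Cacng4, a regulatory subunit of membrane channels, lay at 8.3 and 6.97 CPM in the Lck pair and at 0.42 and 0.119 CPM in the Vav pair, with Miz1 wt at 3.71 and 2.09 CPM between them. Spats2l lay at 25 and 27.4 CPM in the Lck pair and at 2.58 and 0.921 CPM in the Vav pair. Sbf2, an exchange factor for Rab GTPases, was split within the Vav pair, at 34.5 and 175 CPM against 15.1 and 7.99 CPM in the Lck pair, and its log2 difference of the Vav pair from Miz1 wt fell from 3.29 to 1.69 without Vav 2.

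**Figure D3:**
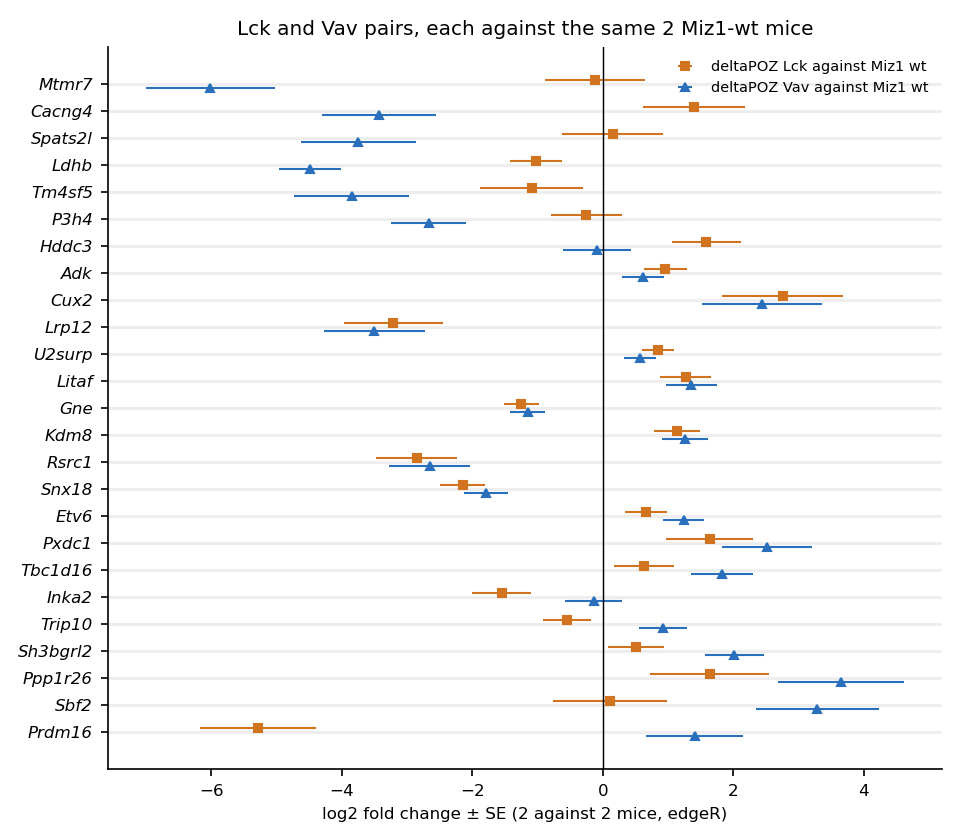
Log2 fold changes (± SE, edgeR) of the Lck pair (squares) and of the Vav pair (triangles), each against the same 2 Miz1-wt mice, for the genes named in the pair comparisons, ordered by the difference between both pairs. Snx18, Gne, Rsrc1 and Lrp12 have nearly the same value in both pairs. Prdm16 lies at one end of the order, and Mtmr7, followed by Cacng4, at the other; the 2 values of a gene share their control mice.

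Genes of the leukaemia programmes were examined next. Of 20 Notch targets, 2 were higher and 0 lower at an unadjusted p under 0.05 (0.59% and 1.28% of all genes), 4 lay wholly above Miz1 wt (5.45% of all genes) and 0 wholly below, and the median log2 difference was 0.16. Maml3, a coactivator of Notch, lay at 3.88, 5.95, 8.4, 8.71, 9.09 and 13.9 CPM (log2 1.01, SE 0.40). Cr2, a complement receptor best known from B cells, is on the Notch list and on the B cell list, and lay at 3.01, 1.3, 13.8, 5.82, 20.8 and 18.1 CPM (log2 2.68, SE 0.90). Nrarp, a feedback inhibitor of Notch, lay at 363 and 311 CPM against 600, 571, 543 and 1193 CPM (log2 1.08, SE 0.71) and did not pass. Dtx1 lay at 795 to 1097 CPM over all 6 libraries, and Hes1 and Myc, both central to Notch-driven leukaemia, had log2 differences of -0.0947 and -0.19.

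Genes of maturing thymocytes included 2 of 28 that were lower at an unadjusted p under 0.05 (1.28% of all genes) and 0 that were higher (0.59%). Cd4, the coreceptor of helper T cells, lay at 346, 439, 212, 257, 103 and 122 CPM, with the Vav pair lowest (log2 -1.27, SE 0.49). Cd8a lay at 794 and 1266 CPM against 371 to 990 CPM. Of 22 genes of immature thymocytes and progenitors, 0 had an unadjusted p under 0.05. Rag2, a recombinase subunit, ranged from 0.0764 to 29.5 CPM within the deltaPOZ mice, which spans the level of one of the Miz1-wt libraries (23 and 38.5 CPM). In bulk RNA, fewer cells of one kind and less RNA per cell cannot be told apart.

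Among 30 p53 targets, 2 were higher and 1 lower at an unadjusted p under 0.05 (0.59% and 1.28% of all genes), with a median log2 difference of -0.0795. Sulf2, a sulfatase of the cell surface that overlaps Ncoa3, lay at 0.349 and 0.33 CPM against 0.722 to 1.47 CPM (log2 1.55, SE 0.51). Fas, a death receptor, lay at 4.89, 2.16, 1.5, 1.35, 0.821 and 0.802 CPM, and its log2 difference of -1.71 (SE 0.69) was -1.02 without Miz1-wt 1 and -2.19 without Miz1-wt 2. Of the lists for the cell cycle (27 genes), cholesterol synthesis (20), the Bcl2 family (15), the IL-7 and STAT5 axis (13) and immediate early genes (15), none held a gene with an unadjusted p under 0.05. In the cell cycle list 6 of 27 lay wholly above Miz1 wt (5.45% of all genes) and 4 wholly below (5.95%), with a median log2 difference of 0.11. In the cholesterol list 18 of 20 were below 0, with a median of -0.10. In the interferon response list 1 of 25 was lower at an unadjusted p under 0.05 (1.28% of all genes). This was Iigp1, an interferon-inducible GTPase, at 24.5, 10.8, 7.1, 4.58, 2.1 and 7.54 CPM. Its log2 difference was -1.73 with all libraries, -1.04 without Miz1-wt 1 and -2.33 without Vav 2. The pairs differed in this list's counts: in the Vav pair 23 of 25 members were below 0, 12 lay wholly below Miz1 wt (16% of all genes) and the median log2 difference was -0.38. In the Lck pair 11 of 25 were below 0, 3 lay wholly below (13.2% of all genes) and the median was 0.0213. Both pairs share their Miz1-wt mice, and the difference between them was not tested for the list. In the nucleoside list 1 of 21 was lower (1.28% of all genes), Cda, described with the Vav pair.

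Markers of other cells were present in every library and varied between mice of one group. Erythroid markers (7 tested of 8) summed to 4205 and 19495 CPM for Miz1 wt and to 6974 to 17575 CPM with deltaPOZ, neutrophil markers (10) to 937 and 56.3 CPM against 117 to 464 CPM, and NK markers (6) to 274 and 158 CPM against 158 to 532 CPM. B cell markers (12) summed to 1225 and 399 CPM against 566 to 1304 CPM. Of these B cell markers 11 were above 0 in log2 difference with a median of 1, 5 lay wholly above Miz1 wt (5.45% of all genes), and 1 (Cr2) was higher at an unadjusted p under 0.05 (0.59% of all genes). For Pax5, the regulator of B cell identity, the log2 difference of 1.10 (SE 0.83) was 2.51 without Miz1-wt 1 and 0.38 without Miz1-wt 2. Macrophage markers (9) had a median of 0.44 and summed to 119 and 172 CPM against 119 to 222 CPM. Endothelial and stromal markers (7) had a median of 0.54 and summed to 113 to 125 CPM against 104 to 155 CPM. All 9 macrophage and all 7 endothelial and stromal markers were above 0 in the pooled log2 difference, and all 7 tested erythroid markers were below 0. In the Lck pair alone these counts were 5 of 9, 4 of 7 and 1 of 7. Of the 6 thymic epithelial markers 3 were too low to test, and their sums were 0.366 to 2.43 CPM. No marker of any of these lists was at 0 in all 6 libraries. Of the 10 neutrophil markers 8 were below 0 in log2 difference and 2 above. Elane, Mpo and Ngp had log2 differences of -2.25, -1.57 and -1.35 with all libraries, and of 0.65, 1.43 and 2.37 without Miz1-wt 1. Retnlg, a marker above 0, had 1.28 and 2.42. The part of these cells in the differences described above was not tested.

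**Figure D4:**
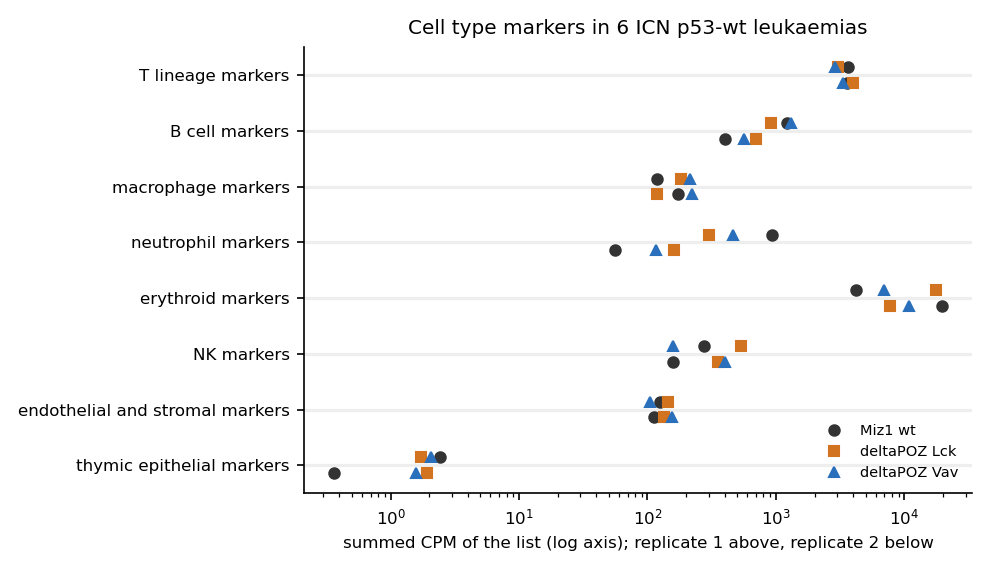
Summed CPM of 8 marker lists in each of the 6 libraries on a logarithmic axis, with replicate 1 above and replicate 2 below the line of each list. T lineage sums lie between 2871 and 3970 CPM in all libraries, and neutrophil sums run from 56.3 to 937 CPM within the Miz1-wt pair alone.

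The same contrast in ICN leukaemias without p53 uses 6 other mice (2 Miz1 wt and 4 deltaPOZ). The first of these 2 Miz1-wt libraries stood apart in quality. Of its alignments 63.7% were not unique, the highest of all 16 libraries, and 20.6% fell in genes, the lowest. All fold changes given for p53 ko include this control. The fold changes of the p53-ko contrast were not used to choose the 24 genes. Both contrasts share the spread estimated per gene over all libraries, so a gene of low spread tends to a small p in both. The p-values in p53 ko are therefore not an independent check of this choice. Over all genes there, edgeR called 1 (0.00572%) and 660 had an unadjusted p under 0.05 (3.78%), 383 of them lower (2.19%) and 277 higher (1.59%). Groups did not overlap in 8.9% of genes, and 50.6% of log2 differences were below 0. Of the 12 genes lower in p53 wt, 8 were below 0 in p53 ko, 6 were lower at an unadjusted p under 0.05 and 5 lay wholly below Miz1 wt (4.5% of all genes), but 0 passed adjustment. Among the 6 were Snx18, Rsrc1, Gne, Mmadhc and Cox19. Rsrc1 lay at 46.1 and 31.2 CPM for Miz1 wt, 14 and 19.7 CPM in the Lck pair and 2.55 and 9.12 CPM in the Vav pair (log2 -1.96, SE 0.48). Snx18 lay at 67.6 and 38.7 CPM for Miz1 wt, at 40 and 40.5 CPM in the Lck pair and at 9.53 and 17.1 CPM in the Vav pair (log2 -1.20, SE 0.28). Its groups thus overlapped in p53 ko through the Lck pair.

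Of the 12 genes higher in p53 wt, 6 were above 0 in p53 ko and 2 lay wholly above Miz1 wt (4.4% of all genes). Kdm8, Pxdc1 and Cr2 were higher there at an unadjusted p under 0.05, with log2 differences of 0.93, 3.54 and 5.02, and Etv6 was lower. Etv6 lay at 76.3 and 53.2 CPM for Miz1 wt and at 46.2, 69.9, 29.1 and 31.3 CPM for deltaPOZ in p53 ko (log2 -0.63, SE 0.27), against 0.95 in p53 wt. B cell markers had a median log2 difference of 3.39 in p53 ko, beside the value for Cr2. Of the 12 genes reported as Miz1 targets, 11 were below 0 in p53 ko, with a median log2 difference of -0.36 against -0.54 in p53 wt. There 4 were lower at an unadjusted p under 0.05 (2.19% of all genes). Wholly below Miz1 wt lay 2 of them (4.5% of all genes), against 5 in p53 wt. Ambra1 (log2 -0.72, SE 0.19), Vamp4 (-0.76, SE 0.30) and Rpl22 (-0.53, SE 0.22) of this list had nearly the values of p53 wt.

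The difference between the 2 p53 backgrounds was tested as an interaction over 17470 genes. edgeR called 0 (0%), 454 genes had an unadjusted p under 0.05 (2.6%), limma-voom called 0 and DESeq2 called 29. Many of the 29 were immunoglobulin genes, such as Igkc and Ighg2c, and among the others were Ldhb, Lrp12 and Mtmr7. Among the named genes 5 of 12 lower and 6 of 12 higher ones had an unadjusted p under 0.05, which the choice of the genes in p53 wt favours. Ldhb lay at 9.11, 14.4, 9.64, 7.23, 7.46 and 9.46 CPM in p53 ko, where no pair stood apart, and the difference between backgrounds was -2.28 (log2, edgeR adjusted p = 1). Lrp12 lay at 13.6 and 8.22 CPM against 6.74, 21.6, 2.69 and 16.3 CPM in p53 ko, so its separation was not seen there. Mtmr7 had the reverse pattern: in p53 ko the Vav pair was highest, at 13.3 and 9.23 CPM, against 0.252 to 0.893 CPM in the other 4 libraries.

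**Figure D5:**
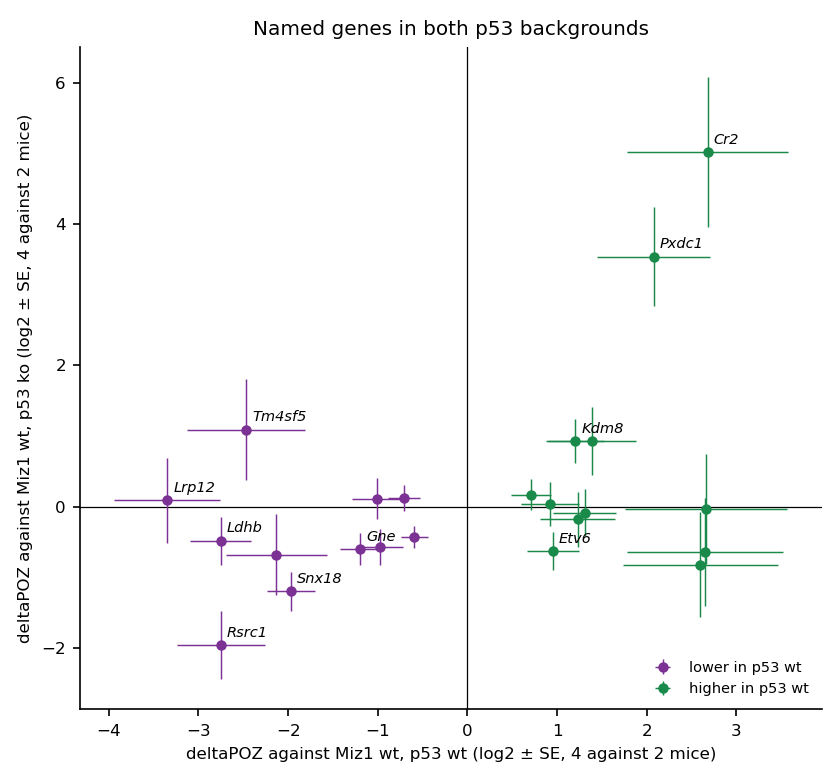
Log2 fold change of deltaPOZ against Miz1 wt (± SE, edgeR) with p53 wt (horizontal) and with p53 ko (vertical) for genes of both named sets. The genes were chosen by p and by groups that did not overlap in p53 wt, and both axes share the spread estimated per gene. Each background has 4 deltaPOZ and 2 Miz1-wt mice of its own. Rsrc1, Snx18 and Gne lie below 0 on both axes, Cr2, Pxdc1 and Kdm8 above 0 on both, and Lrp12 lies near 0 in p53 ko.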

How the data were processed

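Raw gene counts, 1 table per mouse with 41214 genes, were used as the authors deposited them. The submitters' processing notes name TopHat2 2.0.10, HTSeq, SAMtools and DESeq, without their roles, and list mm10 and GRCm38 as builds. The annotation and the strand setting of the counting are not given in the labels, so genes overlapping on opposite strands are named as such. Notch1, Nrarp, Pxdc1, Tbc1d16, Tbc1d9, Pax5, Rag2, Bcl2 and Mpo also overlap annotated genes on the other strand. The 5 totals per table that name no gene were left out. In the 6 libraries genes kept 26.4% to 35% of the totals. GENCODE M21 named 40340 identifiers. Counts of all 16 libraries (8 groups of 2) were fitted with edgeR 4.0.16 in R 4.3.3: filterByExpr (17470 genes kept), TMM, quasi-likelihood F test, Benjamini-Hochberg adjustment over all genes, threshold 0.05. The SE is the log2 fold change divided by the root of F, levels are TMM-normalised CPM, and the fit was tested on simulated data. The simulated counts had a smaller spread than these data, and only genes of higher level were changed in them. That test therefore does not show how many changes the fit finds here. DESeq2 1.42.0, limma-voom (limma 3.58.1), other filters, scalings and sample sets were alternatives. Members and lists were chosen with earlier results of these data known. Named were protein-coding genes of mean log2 CPM at least 0, without receptor segments, Y-linked genes or Xist: 12 per direction pooled (groups not overlapping, lowest p), 6 per direction for each pair, 4 for Lck against Vav, up to 4 per list, and a fixed set of targets. Genes outside this rule (those with a 2-fold gap, members given to fill a list, Xist and Ddx3y) were named after their values were seen. Of 12 lower and 12 higher genes, 7 and 11 had a RefSeq promoter entry. A few genes that the counts include are not reported here.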

Additional observations from a re-analysis of the deposited data

Results flagged for a closer look

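Of 55 leading genes and marker sums examined over the 4 deltaPOZ libraries, 1 held a library far from the other 3. Cry1, the circadian repressor of the lower set, had a log2 CPM of 5.26 in the second Lck library and of 4.83 to 4.90 in the other deltaPOZ libraries. The gap took 0.841 of the whole range, above Dixon's 95% critical value for 4 samples. Chance marks about 1 in 20 groups of unselected values. Many of these genes were chosen partly by the same 4 values, so that rate need not hold for the 55. The second Lck library was still below both Miz1-wt libraries.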

How the results depend on the processing

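No paired analysis was possible because the labels give no replicate numbers, and the numbers used here follow accession order. The counts of called genes depended on the tool and the filter, and the cause was not tested. With no filter on low counts edgeR called 211 genes pooled, 113 for the Lck pair, 261 for the Vav pair, 193 for Lck against Vav and 378 for the p53 interaction, of which 1, 1, 1, 1 and 2 had been below the filter. DESeq2 called 15, 8, 35, 17 and 29. With the 12 ICN libraries alone the Vav pair had 0 calls, and with the 6 libraries alone it had 0 and Lck against Vav had 1 (Trbv13-2). Leaving out each library gave 0 to 1 pooled calls (Rnd2 without Miz1-wt 1, Ldhb without Vav 1), 0 for the Lck pair, 0 to 2 for the Vav pair, 0 to 2 for Lck against Vav (2 without Vav 1) and 0 for the interaction. Median-of-ratios scaling, the filter of 1 CPM in 2 libraries, robust dispersion and limma-voom kept each of these counts. Where a library was left out, its lone partner was assumed to vary like the other groups. The comparison rests on 2 Miz1-wt mice, and 1 of these stood apart in its sex-linked and neutrophil genes, so their number limits the precision.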
